A study of Mus musculus with 6 samples.

Results

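Ligands of the tumour necrosis factor (TNF) superfamily were examined in re-activated CD4+ T cells: *Lta*, *Ltb*, *Tnf*, *Tnfsf8*, *Tnfsf11*, *Tnfsf14*, *Tnfsf10*, *Cd40lg*, and *Fasl*. These 9 genes were a named list, chosen with earlier results of these data known. They were matched by symbol to the 47643 Ensembl genes of the count table. All 9 were among the 11877 genes with at least 10 reads over the 6 samples, and they were therefore tested. CD4+ T cells had been sorted from the spleens of Tg4 *Nr4a3*-Tocky Tiger mice, which carry a transgenic T cell receptor for a myelin basic protein (MBP) peptide, a Timer reporter driven by *Nr4a3* that turns from blue to red with age, and an *Il10*-GFP reporter. All mice received 80 μg of [4Y] MBP peptide s.c., then 800 μg of antibody i.p. 24 h later, and 8 μg of the same peptide after a further 30 min. Cells with both blue (new) and red (matured) Timer were sorted 4 h after the second dose. The 3 groups differed only in the antibody, which was an isotype pool (rat IgG1 and rat IgG2a), a blocking anti-PD1 (clone 29F.1A12), or a blocking anti-Lag3 (clone CB97W in the labels). Each group held 2 samples. The cells of every group bear a single transgenic receptor and had been stimulated with peptide, so none of the groups was a resting control. The labels call the samples biological duplicates without saying whether a sample was a single animal or a pool. The paper states that cells of replicate mice were stained separately, with CD4 antibodies of different colours, to be sorted in parallel. The p-values rest only on the spread between these samples. In the fits, the spread of each gene was drawn largely from that of all tested genes, not from its own 2 samples per group.

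TNF superfamily ligands are made as membrane-anchored trimers that engage TNF receptor family members on neighbouring cells, and several are also cut from the surface to act at a distance. Activated CD4+ T cells use them to instruct B cells, dendritic cells, and stroma (CD40 ligand, lymphotoxins, LIGHT, RANKL), to provoke inflammation (TNF), and to induce death of other cells (Fas ligand, TRAIL). Lymphotoxin α is secreted as a homotrimer and needs lymphotoxin β to be held at the membrane, where the mixed trimer signals through the lymphotoxin β receptor in the building of lymph nodes and follicles. The genes of both lymphotoxins flank *Tnf* within the major histocompatibility complex.

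On GRCm38, *Ltb* (chr17:35194439-35196320, plus strand), *Tnf* (chr17:35199381-35202007, minus strand), and *Lta* (chr17:35203165-35205351, minus strand) lay in this order within 10913 bp. The gap from *Ltb* to *Tnf* was 3060 bp, and that from *Tnf* to *Lta* 1157 bp. The other members lay on chromosomes 1 (*Fasl*), 3 (*Tnfsf10*), 4 (*Tnfsf8*), 14 (*Tnfsf11*), 17 (*Tnfsf14*), and X (*Cd40lg*). *Lta* was overlapped on its own strand by the microRNA gene *Mir6974*, and *Ltb* by *Mir6973a*. RefSeq promoter windows (GRCm38.p6, 250 bases before to 50 bases after the start site) were at hand for 8 of the 9 members, all except *Cd40lg*. The windows of the 3 neighbours are shown because *Lta* and *Ltb* passed the test with anti-PD1, both lower. *Tnf*, which lies between them, was lower by estimate but did not pass, and a smaller change of *Tnf* was not shown. The 3 windows follow. Each is written 5′ to 3′ on the strand of its gene. Capitals mark GGAAA, the core that NFAT factors bind, on either strand (TTTCC on the other), and matches to the consensus of NF-κB, on either strand.
Lta promoter, chr17:35205302-35205601, minus strand: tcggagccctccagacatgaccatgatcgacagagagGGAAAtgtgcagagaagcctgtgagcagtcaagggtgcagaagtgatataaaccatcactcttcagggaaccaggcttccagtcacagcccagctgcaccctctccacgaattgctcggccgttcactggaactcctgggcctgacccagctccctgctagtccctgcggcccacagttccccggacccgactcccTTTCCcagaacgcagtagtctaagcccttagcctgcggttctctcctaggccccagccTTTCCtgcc
Tnf promoter, chr17:35201958-35202257, minus strand: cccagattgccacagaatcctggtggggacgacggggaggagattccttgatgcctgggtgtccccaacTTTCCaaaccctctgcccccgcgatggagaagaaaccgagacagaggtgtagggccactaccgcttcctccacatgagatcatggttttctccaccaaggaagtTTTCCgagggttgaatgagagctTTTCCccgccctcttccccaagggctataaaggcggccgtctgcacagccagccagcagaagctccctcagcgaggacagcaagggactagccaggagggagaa
Ltb promoter, chr17:35194257-35194556, plus strand: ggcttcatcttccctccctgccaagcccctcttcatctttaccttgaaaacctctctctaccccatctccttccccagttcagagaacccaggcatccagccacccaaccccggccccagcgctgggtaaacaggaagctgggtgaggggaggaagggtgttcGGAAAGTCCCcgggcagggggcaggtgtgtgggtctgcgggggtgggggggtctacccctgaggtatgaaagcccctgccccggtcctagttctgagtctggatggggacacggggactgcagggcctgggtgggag
GGAAA was found 3 times in the *Lta* window, 3 times in the *Tnf* window, and 1 time in the *Ltb* window. The NF-κB consensus was found 1 time, in *Ltb*, from base -87 to base -78 before the start site, and it overlapped the GGAAA there. At least 1 GGAAA was in the windows of all 8 members that had a window, and in 61.3% of the 32851 windows in the table. The NF-κB consensus was in 1 of the 8 and in 8.46% of all windows. Bases outside the windows were not searched for these motifs. TGANTCA, the motif of AP-1 factors searched on both strands, was in 1 of the 8 (*Tnfsf14*) and in 7.81% of all windows. TATAAA, searched on the strand of the gene, was in 2 of the 8 and in 8.32% of all windows. In *Tnf* it began at base -29, and in *Lta* at base -167.

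The 3′ untranslated regions of the 3 neighbours also differed. AU-rich repeats such as those in *Tnf* mRNA are known to shorten the life of cytokine messages. In the longest annotated 3′ UTR of each gene, TATTTAT was counted with overlaps allowed: *Tnf* held 8 in 767 bases, *Lta* held 3 in 575 bases, and *Ltb* held none in 177 bases. The part of the *Tnf* 3′ UTR in which ATTTA (capitals) was densest is shown as the RNA would read, with T for U.
Tnf 3′ UTR, chr17:35199679-35199708, minus strand: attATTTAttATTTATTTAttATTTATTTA
At least 3 TATTTAT were in 4 of the 9 members (*Lta*, *Tnf*, *Tnfsf8*, and *Tnfsf10*) and in 4.13% of the 10265 tested genes with an annotated 3′ UTR, and 1 or more were in 8 of the 9 members and 30.5% of those genes. These are counts of letters and were not related to the measured changes by a test.

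Libraries held between 2107715 and 2648920 counts, so that 3 reads, taken as the smallest detectable number, amounted to 1.11 to 1.44 CPM, which are counts scaled to a common library size by edgeR's TMM method. The libraries capture the 3′ ends of transcripts. The noncoding *Gm42418* took at least 17.4% of the counts of every library. Summed levels of 8 T cell markers were 1454 to 1735 CPM, whereas 3 NK cell markers summed to at most 1.41 CPM. Those of 3 red cell markers were 9.10 to 33.5 CPM. Markers of B cells, of macrophages or dendritic cells, and of CD8 T cells are given beside *Ltb*, since B cells and myeloid cells can themselves express TNF superfamily ligands.

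Between anti-PD1 and isotype, the messages of both lymphotoxins fell, and the test passed for no other ligand. Of the 9 ligands, 2 passed an adjusted p of 0.05 in edgeR's quasi-likelihood test, both lower, against 0.269% of all tested genes called lower (and 0.631% called higher). Because the ligands were chosen with earlier results known, the shares given here are no test of enrichment. For 4 ligands (*Lta*, *Ltb*, *Tnf*, and *Tnfsf11*) both anti-PD1 samples lay under both isotype samples, where this was so for 18.2% of tested genes, and for 0 ligands did both lie above, against 19.2%. In all, 7 of the 9 ligands had negative log2 fold changes. Their median was -0.83, with a median over all tested genes of 0.0045.

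*Lta* encodes lymphotoxin α. Its reads numbered 60 and 156 with isotype, 17 and 45 with anti-PD1, and 87 and 94 with anti-Lag3. As CPM these were 28.3 and 62.8, 8.15 and 18.4, and 36.7 and 34.9, respectively. Both anti-PD1 samples were lower than all other samples, and the anti-Lag3 samples sat inside the isotype range. The isotype samples differed more from each other than the anti-Lag3 samples did. With anti-PD1, *Lta* was 3.39-fold lower than with isotype (log2 fold change -1.76, SE 0.32, 95% interval -2.41 to -1.11, adjusted p = 0.000784, edgeR). Without isotype replicate 2, its higher isotype sample, the log2 fold change was -1.06 and no longer passed (adjusted p = 0.380), and without anti-PD1 replicate 1, its lowest sample, it was -1.32 (adjusted p = 0.156).

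*Ltb* encodes lymphotoxin β, the membrane anchor of the mixed trimer. It had 107 and 150 reads with isotype, 44 and 54 with anti-PD1, and 77 and 70 with anti-Lag3, or 50.4 and 60.4, 21.1 and 22.1, and 32.5 and 26.0 CPM. The 3 groups did not overlap, in the order isotype, anti-Lag3, anti-PD1. The anti-PD1 replicates lay closer to each other than those of either other group. The fall with anti-PD1 was 2.57-fold (log2 fold change -1.36, SE 0.25, 95% interval -1.86 to -0.86, adjusted p = 0.000705, edgeR). It passed with any sample left out except isotype replicate 2, without which the log2 fold change was -1.22 (adjusted p = 0.0575).

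**Figure D1:**
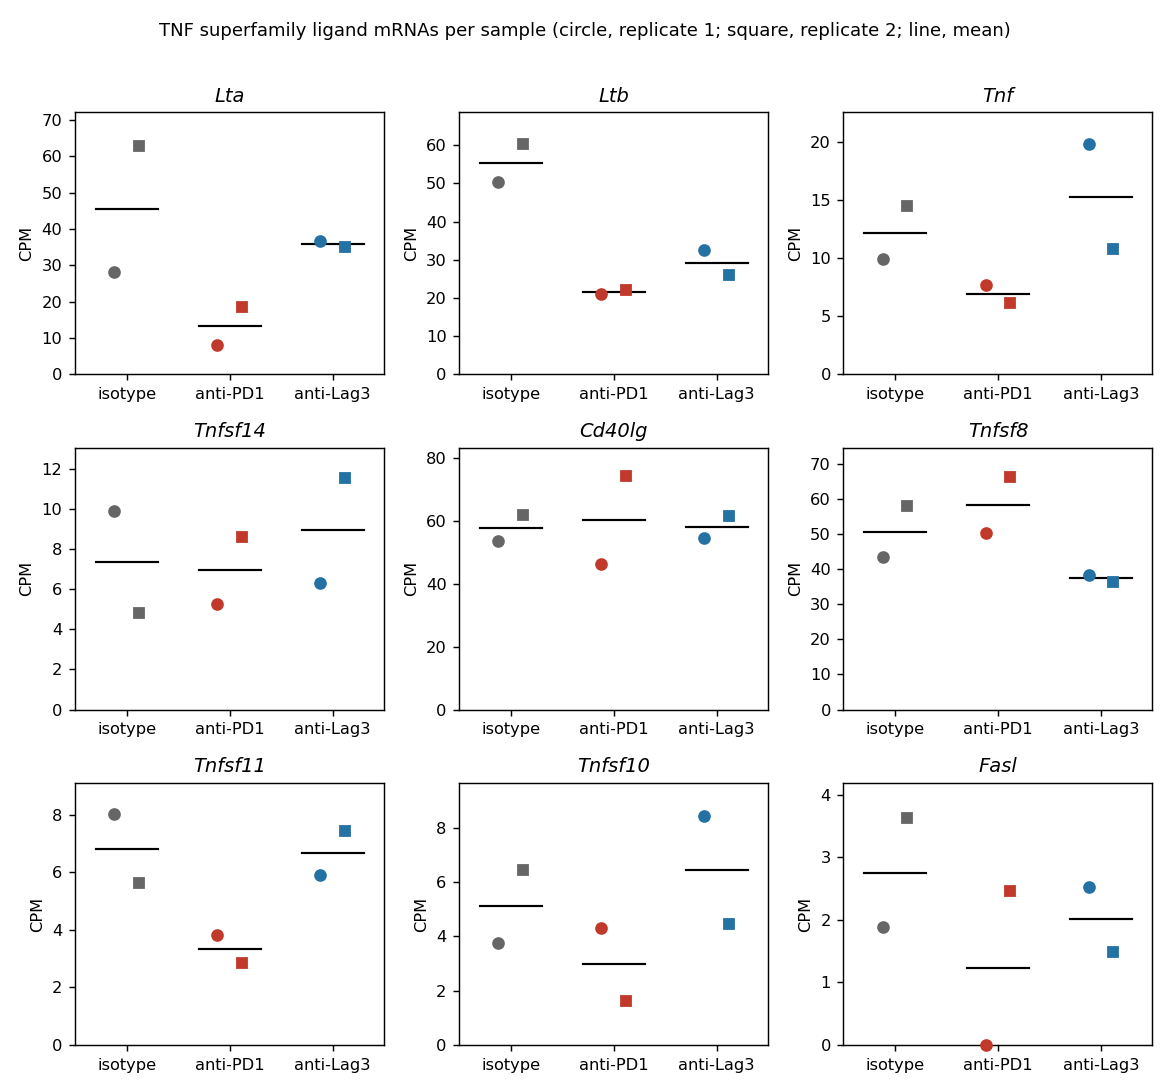
Levels of the 9 ligand messages in CPM (y axis, starting at 0) in each of the 6 samples, by antibody group (x axis). Circles are replicate 1, squares replicate 2, and lines group means. *Ltb* separates into 3 groups (means 55.4, 21.6, and 29.2 CPM for isotype, anti-PD1, and anti-Lag3), *Lta* is lowest in both anti-PD1 samples, and *Cd40lg* overlaps between all groups.

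With anti-PD1, the summed markers of B cells, of macrophages or dendritic cells, and of CD8 T cells lay under both isotype samples, as did *Ltb* and *Lta*. With anti-Lag3, the macrophage or dendritic cell and CD8 T cell sums lay under both isotype samples, while *Lta* stayed inside the isotype range. The 10 B cell markers summed to 142 and 161 CPM with isotype, 72.8 and 68.7 with anti-PD1, and 89.8 and 151 with anti-Lag3. Without *Ighm*, the most abundant of them, the other 9 summed to 59.4 and 65.2 CPM with isotype, 19.2 and 25.4 with anti-PD1, and 19.8 and 43.1 with anti-Lag3, a sum looked at after the data were seen. Without *Ighm* both antibody groups lay under both isotype samples. Since *Ighm* was left out with its values known, this order is no test of a link to *Ltb*. All 9 of the B cell markers that were tested had negative log2 fold changes with each antibody, but *Ighm* was flat with anti-Lag3. Its log2 fold change there was -0.0014, with means of 88.9 CPM with anti-Lag3 and 89.1 with isotype. An unadjusted p under 0.05 was reached by 6 of the 9 with anti-PD1 and by 5 with anti-Lag3 (edgeR). Of the 9, 1 passed the adjusted threshold, *Ighm* with anti-PD1 (fitted log2 fold change -0.89, adjusted p = 0.00836, edgeR). *Pax5*, a B cell transcription factor, had 11 and 9 reads with isotype, 1 and 1 with anti-PD1, and 2 and 1 with anti-Lag3. *Ms4a1*, which encodes CD20, had 17 and 19, 5 and 4, and 3 and 9 reads. *Cd79a*, which encodes a chain of the B cell receptor complex, had 0 reads in all 6 samples. The macrophage or dendritic cell sums were 88.6 and 95.8 CPM with isotype, 57.5 and 69.9 with anti-PD1, and 72.5 and 78.0 with anti-Lag3. Of these 10 genes, 7 had negative log2 fold changes with anti-PD1 and *C1qa* passed (log2 fold change -2.59, adjusted p = 0.0266, edgeR). The other 3, *Cd68* (0.95), *Cst3* (0.19), and *Tyrobp* (0.18), had positive ones and did not pass. With anti-Lag3, 6 of the 10 were negative, among them *C1qa* (-2.23, adjusted p = 0.343, edgeR), and 0 passed. Some T cell genes moved too. The 2 CD8 T cell markers summed to 54.7 and 48.3 CPM with isotype, 34.5 and 29.8 with anti-PD1, and 33.7 and 32.7 with anti-Lag3, and for both genes the antibody samples lay under the isotype samples, with 0 of the 2 passing the adjusted threshold under either antibody (1 with an unadjusted p under 0.05 under each, edgeR). Of the 8 T cell markers, 5 (*Cd3d*, *Cd3e*, *Cd3g*, *Cd4*, and *Lck*) had both anti-PD1 samples under both isotype samples, against 18.2% of tested genes. Their log2 fold changes ran from -0.42 to -0.23, and 0 of the 5 passed. *Trac* (0.07) and *Cd28* (0.11) had positive log2 fold changes and overlapped with isotype. The sums of all 8 also overlapped, at 1561 and 1671 CPM with isotype and 1454 and 1588 with anti-PD1. *Cd5*, by contrast, rose by a log2 fold change of 1.01 under anti-PD1 (adjusted p = 0.00154, edgeR). The part of other cells in the falls of *Ltb* and *Lta* was not tested. In sorted bulk samples, fewer cells of a type and less RNA per cell cannot be told apart.

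**Figure D2:**
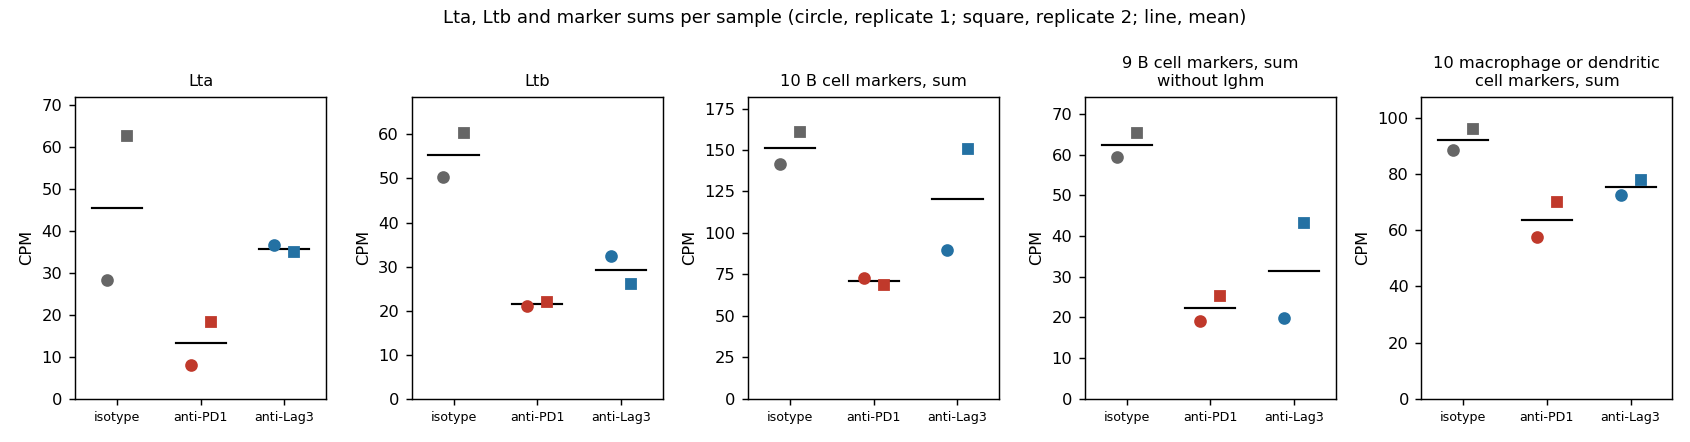
*Lta*, *Ltb*, and the summed CPM of 10 B cell markers, of 9 of them without *Ighm*, and of 10 macrophage or dendritic cell markers (y axes, starting at 0) in each sample by group (x axes); circles are replicate 1, squares replicate 2, and lines means. In anti-Lag3 replicate 2 the sum of all 10 B cell markers (151 CPM) is inside the isotype range. The sum without *Ighm*, taken after the data were seen, is 43.1 CPM there, and *Ltb* is 26.0 CPM.

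*Tnf*, between the lymphotoxin genes on the chromosome, is the founding inflammatory cytokine of the family. It had 21 and 36 reads with isotype, 16 and 15 with anti-PD1, and 47 and 29 with anti-Lag3, which was 9.90 and 14.5, 7.67 and 6.13, and 19.8 and 10.8 CPM. Both anti-PD1 samples were under the other 4, as for *Lta*, and the isotype and anti-Lag3 samples overlapped. Its difference between anti-PD1 and isotype, a log2 fold change of -0.83 (95% interval -1.72 to 0.06, adjusted p = 0.669, edgeR), had the same sign as those of its neighbours but did not pass the test. The interval contains 0 and also a fall as large as that of *Ltb*, so a smaller change of *Tnf* was not shown.

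Within a sample, the ratio of neighbouring messages does not depend on library scaling. Log2 ratios of reads, with 2 added to each count, were therefore compared between groups by an exact two-sided permutation test, which with 2 samples against 2 cannot give a p under 0.333. Only differences of these ratios between groups are read here, since their level also depends on how well each transcript is captured. The *Lta* to *Tnf* ratio was 1.43 and 2.06 with isotype, 0.08 and 1.47 with anti-PD1, and 0.86 and 1.63 with anti-Lag3, and all groups overlapped (exact p = 0.667 for each pair of groups). The *Ltb* to *Tnf* ratio was 2.24 and 2.00 with isotype, 1.35 and 1.72 with anti-PD1, and 0.69 and 1.22 with anti-Lag3. These 3 groups did not overlap, and the difference from isotype was -0.59 with anti-PD1 and -1.17 with anti-Lag3 (exact p = 0.333 for each). The *Lta* to *Ltb* ratio was -0.81 and 0.06 with isotype, -1.28 and -0.25 with anti-PD1, and 0.17 and 0.42 with anti-Lag3. For this ratio the isotype and anti-PD1 samples overlapped (difference -0.39, exact p = 0.667), and both anti-Lag3 samples lay above the other 4. None could pass the threshold by this test.

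The other genes tested around the 3 ligands were *Prrc2a*, *Aif1*, and *Lst1* on the side of *Ltb*, and *Nfkbil1*, *Atp6v1g2*, and *Ddx39b* on the side of *Lta*. None of these 6 passed the test in any of the 3 comparisons (edgeR, with 1 unadjusted p under 0.05, for *Prrc2a* between the antibodies). The well-counted *Ddx39b*, an RNA helicase, ranged from 233 to 312 CPM, with a log2 fold change of -0.17 between anti-PD1 and isotype (95% interval -0.42 to 0.07). *Prrc2a* ranged from 86.5 to 133 CPM, with 0.20 (-0.11 to 0.51), and *Nfkbil1*, an IκB-like gene next to *Lta*, from 15.8 to 22.5 CPM, with 0.05 (-0.61 to 0.71). The intervals of these 3 exclude falls as large as the estimates for *Lta* and *Ltb*. *Aif1* and *Lst1*, genes known from macrophages, had at most 12 and 10 reads in a sample and log2 fold changes of -1.49 (-3.31 to 0.32) and -1.68 (-4.03 to 0.68). *Atp6v1g2* had at most 11 reads, with 0.06 (-1.83 to 1.95).

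**Figure D3:**
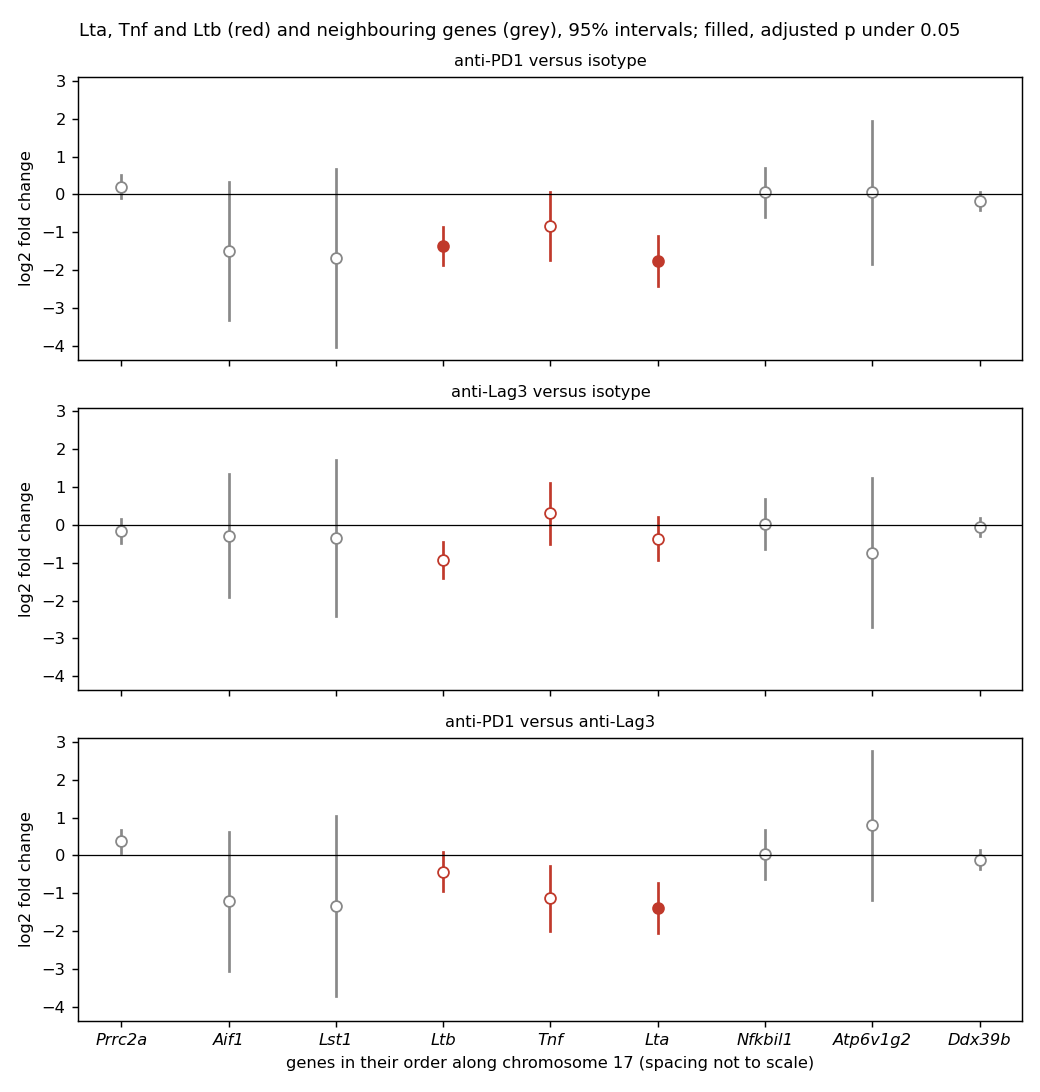
Fitted log2 fold changes with 95% intervals (y axis) of *Ltb*, *Tnf*, and *Lta* (red) and 6 neighbouring genes (grey) in chromosomal order (x axis, spacing not to scale), with a panel per comparison; filled points passed an adjusted p of 0.05. Between anti-PD1 and isotype, *Ltb* (-1.36) and *Lta* (-1.76) are filled, while *Prrc2a* (0.20), *Nfkbil1* (0.05), and *Ddx39b* (-0.17) have intervals that contain 0.

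Among ligands that T cells use to instruct other cells, none other passed the test between anti-PD1 and isotype. *Cd40lg*, the ligand by which helper T cells license B cells and dendritic cells, had 114 and 154 reads with isotype, 97 and 182 with anti-PD1, and 130 and 166 with anti-Lag3, or 53.7 and 62.0, 46.5 and 74.4, and 54.8 and 61.7 CPM. Its log2 fold change with anti-PD1 was 0.07 (95% interval -0.34 to 0.48), which excludes a change as large as that of *Ltb*. *Tnfsf8* encodes CD30 ligand, which signals to CD30 on activated lymphocytes. It had 92 and 144 reads with isotype, 105 and 162 with anti-PD1, and 91 and 98 with anti-Lag3. In CPM this was 43.4 and 58.0, 50.3 and 66.2, and 38.4 and 36.4, so that the isotype and anti-PD1 groups overlapped and both anti-Lag3 samples were lowest. Its log2 fold change between anti-PD1 and isotype was 0.20 (95% interval -0.22 to 0.63). *Tnfsf11* encodes RANKL, a survival signal for dendritic cells and the inducer of osteoclasts. It had 17 and 14 reads with isotype, 8 and 7 with anti-PD1, and 14 and 20 with anti-Lag3. Both anti-PD1 samples were the lowest, at 3.83 and 2.86 CPM, and the log2 fold change of -1.02 from isotype (95% interval -2.26 to 0.23, adjusted p = 0.733, edgeR) did not pass. *Tnfsf14* encodes LIGHT, which shares the lymphotoxin β receptor with the lymphotoxin αβ trimer. Its reads were 21 and 12 with isotype, 11 and 21 with anti-PD1, and 15 and 31 with anti-Lag3, all groups overlapped, and the log2 fold change with anti-PD1 was -0.06 (95% interval -1.11 to 1.00).

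The death ligands were scarce. *Tnfsf10*, which encodes TRAIL, had 8 and 16 reads with isotype, 9 and 4 with anti-PD1, and 20 and 12 with anti-Lag3. *Fasl*, the ligand of Fas in activation-induced death, had 4 and 9 reads with isotype, 0 and 6 with anti-PD1, and 6 and 4 with anti-Lag3. For both genes the isotype and anti-PD1 groups overlapped. Their log2 fold changes between anti-PD1 and isotype were -0.81 for *Tnfsf10* (95% interval -2.23 to 0.60) and -1.09 for *Fasl* (-3.44 to 1.26), and a difference of the size seen for *Ltb* could not be detected or excluded at these counts.

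Between anti-Lag3 and isotype, 0 of the 9 ligands passed (edgeR, 2 with an unadjusted p under 0.05, DESeq2 and limma-voom also 0), where 0.0421% of all tested genes did. This comparison shares its isotype samples with the previous one. For 2 ligands, *Ltb* and *Tnfsf8*, both anti-Lag3 samples lay under both isotype samples, against 17.3% of tested genes. *Ltb* was 1.90-fold lower on average (log2 fold change -0.93, SE 0.23, 95% interval -1.40 to -0.45), with an unadjusted p of 0.000301 and an adjusted p of 0.298 (edgeR), so the difference failed the correction over all genes. *Tnfsf8* had a log2 fold change of -0.44 (95% interval -0.89 to -0.01, adjusted p = 0.827, edgeR). The point estimates for the other 7 lay between -0.47 (*Fasl*) and 0.31 (*Tnfsf10*). *Lta*, at -0.36 (95% interval -0.93 to 0.21), and *Tnf*, at 0.31 (-0.50 to 1.11), had opposite signs, but both intervals contain 0, and each sign turned when a sample was left out (*Lta* to 0.34 without isotype replicate 2, *Tnf* to -0.19 without anti-Lag3 replicate 1). The median over the 9 ligands was -0.02.

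In the direct comparison of the antibodies, *Lta* was 2.64-fold lower with anti-PD1 than with anti-Lag3 (log2 fold change -1.40, SE 0.33, 95% interval -2.06 to -0.74, adjusted p = 0.0420, edgeR), and it alone of the 9 passed, where 0.0589% of tested genes were called lower and 0.244% higher. The call is near its threshold. The adjusted p was 0.0751 in limma-voom and 0.0933 with edgeR's filterByExpr, and it ran from 0.0501 to 0.771 when any of the 4 samples of this comparison was left out, with log2 fold changes between -2.13 and -0.96. For 5 ligands (*Lta*, *Ltb*, *Tnf*, *Tnfsf11*, and *Tnfsf10*) both anti-PD1 samples lay under both anti-Lag3 samples, against 17.7% of tested genes, and for 1, *Tnfsf8*, both lay above, against 18.2%. *Ltb*, which was lower than isotype by estimate under both antibodies, differed between them by a log2 fold change of -0.43 (95% interval -0.95 to 0.09, adjusted p = 0.826, edgeR). *Tnf* differed by -1.14 (-2.01 to -0.27), with an unadjusted p of 0.0112 and an adjusted p of 0.528 (edgeR). *Tnfsf8* was 1.56-fold higher by estimate with anti-PD1 (log2 fold change 0.65, 95% interval 0.21 to 1.08), with an unadjusted p of 0.00462 and an adjusted p of 0.373 (edgeR). *Tnfsf10* and *Tnfsf11* differed by -1.12 (-2.50 to 0.25) and -0.996 (-2.23 to 0.24), and *Cd40lg* by 0.06 (-0.35 to 0.47). The intervals of *Tnf*, *Tnfsf10*, and *Tnfsf11* contain the estimate for *Lta*, and differences between ligands were not tested.

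**Figure D4:**
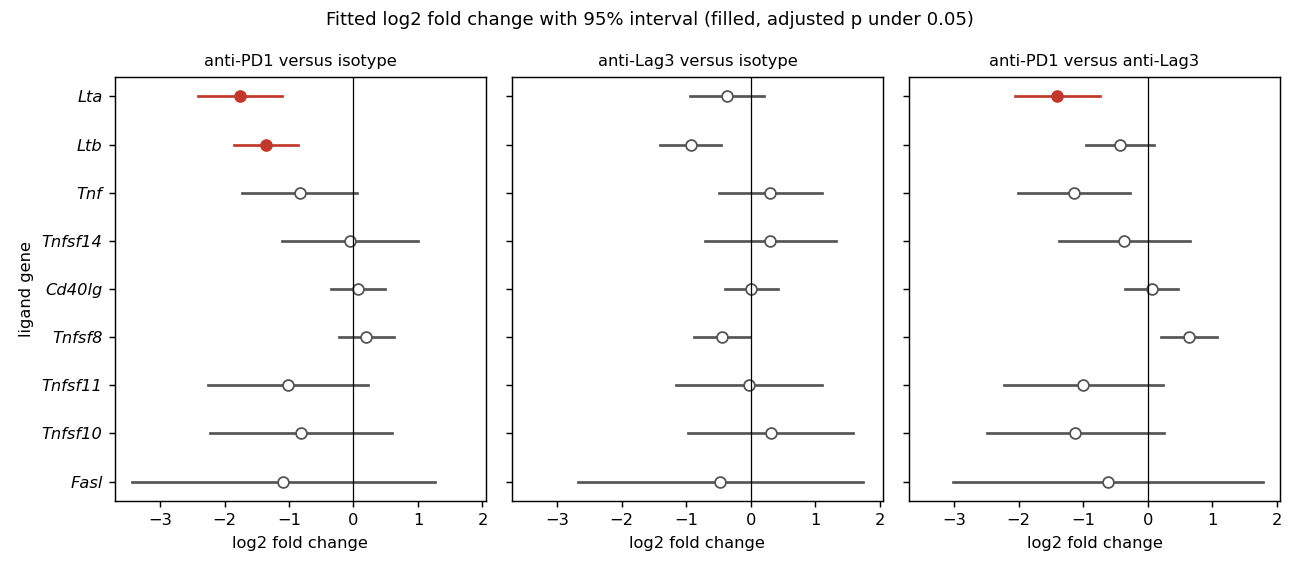
Fitted log2 fold changes (points) with 95% intervals (lines) on the x axis for the 9 ligands (y axis) in the 3 comparisons; red filled points passed an adjusted p of 0.05. *Lta* and *Ltb* pass between anti-PD1 and isotype (-1.76 and -1.36), no ligand passes between anti-Lag3 and isotype, and *Lta* passes between anti-PD1 and anti-Lag3 (-1.40); intervals are widest for *Fasl*.

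**Figure D5:**
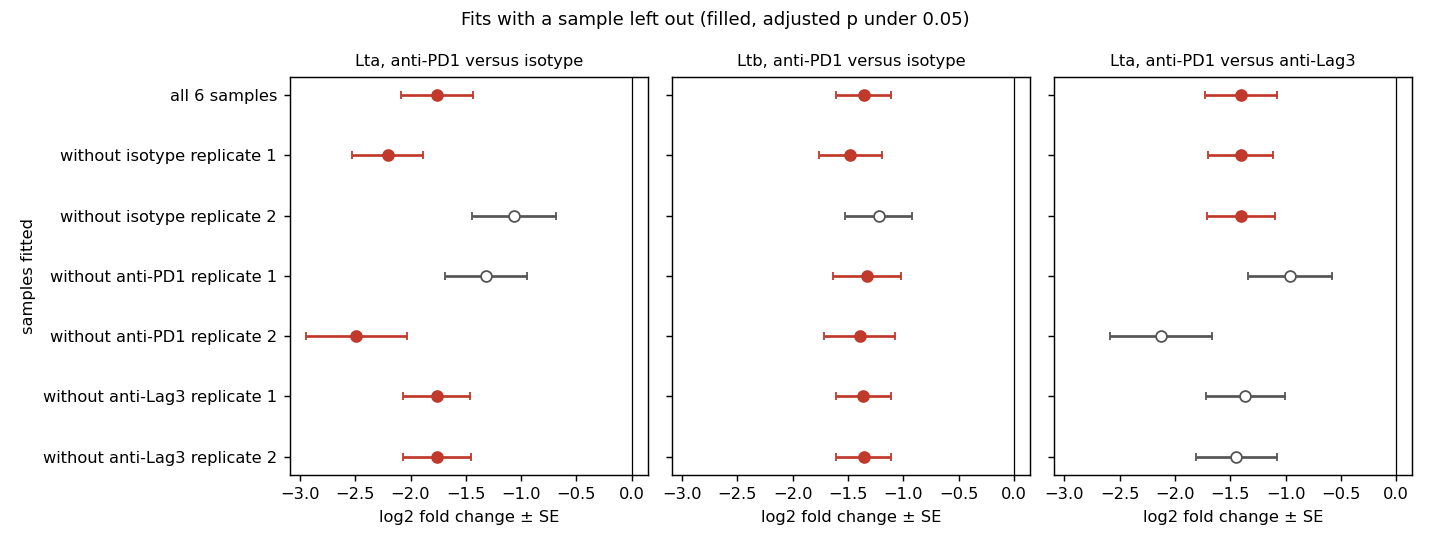
Log2 fold changes ± SE (x axis) of *Lta* and *Ltb* between anti-PD1 and isotype and of *Lta* between anti-PD1 and anti-Lag3, fitted with all 6 samples and with each sample left out (y axis); red filled points passed an adjusted p of 0.05. All estimates are negative, from -2.49 to -0.96, and *Ltb* loses its call only without isotype replicate 2.

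The 3 genes whose profiles over the 6 samples were nearest to that of *Lta*, among 7137 genes with a mean of at least 10 CPM, were *Socs2*, *Nrn1*, and *Gbp9*. Their Euclidean distances, on log2 CPM centred per gene, were 0.67, 0.94, and 0.99, where the median gene was at 2.21. *Socs2* encodes a suppressor of cytokine signalling and *Gbp9* an interferon-inducible GTPase. Nearest to *Ltb* were *Hvcn1*, which encodes a voltage-gated proton channel, *Pdpr*, and *Mlh3*, a mismatch repair gene, at 0.40, 0.43, and 0.49, with the median gene at 1.46. *Lta* and *Ltb* themselves were 1.45 apart. With 6 points per profile, these are descriptions of the samples.

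The rest of the TNF pathway was read from lists that were also chosen with earlier results of these data known. The other 9 ligands of the superfamily, among them *Tnfsf4* (OX40 ligand), *Tnfsf9* (4-1BB ligand), and *Cd70*, had at most 4 reads in a sample, and 0 of the 9 reached the 10 reads needed for testing. Of 12 receptors of the members, 6 were tested and 0 passed in any comparison (edgeR, 0 also at an unadjusted p under 0.05). The TNF receptors *Tnfrsf1a* and *Tnfrsf1b* had 15 to 36 and 27 to 71 reads per sample, whereas *Ltbr*, the receptor of the membrane lymphotoxin trimer, had at most 2 reads, and *Tnfrsf14*, the other receptor of LIGHT, at most 1.

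All 30 transducers and feedback regulators of TNF receptor signalling were tested. Between anti-PD1 and isotype, 1 rose and 0 fell (edgeR, 7 with an unadjusted p under 0.05), with a median log2 fold change of 0.07. The gene that rose was *Bcl3*, an atypical IκB protein that acts with NF-κB p50 and p52 in the nucleus. *Bcl3* was at 35.8 and 22.1 CPM with isotype, 73.8 and 52.7 with anti-PD1, and 40.5 and 35.7 with anti-Lag3 (log2 fold change 1.13, SE 0.24, adjusted p = 0.00501, edgeR), and both anti-PD1 samples were above the other 4. *Traf1*, an adaptor of TNF receptors and itself a target of NF-κB, was at 50.9 and 38.6, 66.1 and 76.1, and 35.4 and 36.8 CPM. It was the 1 of the 30 to pass between the antibodies (7 with an unadjusted p under 0.05), higher with anti-PD1 (log2 fold change 0.98, SE 0.21, adjusted p = 0.0158, edgeR), and its log2 fold change of 0.68 from isotype did not pass (adjusted p = 0.124, edgeR). Between anti-Lag3 and isotype, 0 of the 30 passed (edgeR, 1 with an unadjusted p under 0.05).

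Of the enzymes and partners that cut ligands from the surface, 4 of 6 were tested and 0 passed in any comparison (edgeR, 0 also at an unadjusted p under 0.05), including *Adam17*, which releases TNF, at 90 to 139 reads per sample. All 10 RNA-binding factors that act on AU-rich or stem-loop elements, such as *Zfp36*, were tested, and 0 passed in any comparison (edgeR, 1 with an unadjusted p under 0.05 between anti-PD1 and isotype, *Rc3h2*). Their median log2 fold change was 0.04 between anti-PD1 and isotype and 0.07 between anti-Lag3 and isotype.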

How the data were processed

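RNA of sorted CD4+ T cells was measured in 6 samples, 2 per antibody group, with QuantSeq 3′ libraries. The authors trimmed reads, aligned them with STAR 2.5.2a to mm10 (GRCm38), and counted them per Ensembl gene with HTSeq. The deposited counts are raw whole numbers, and they were the values used. The annotation release and strand setting are not given in the sources used here. The authors excluded a further replicate after principal component analysis, whose samples had been sorted and processed together as a batch. Their rlog table was not used.

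Genes whose reads summed to 10 or more were fitted with edgeR 4.0.16 (TMM, quasi-likelihood, R 4.3.3) over all 6 samples, with Benjamini-Hochberg adjustment over all 11877 genes and a threshold of 0.05. The prior that pooled the spread over genes had 37.2 degrees of freedom. The fits were tested on simulated counts drawn with the spread estimated from these data, so this could not show whether that spread is right. Of 200 genes changed by a log2 of 1, edgeR called 55%, and 6.78% of its calls were false. With no gene changed, it called 0. Totals ran from 2107715 to 2648920, and low counts are the least precise. Intervals are at 95%, and floors cover counting error only. Counts of replicates differed beyond counting error, with a chi-square of 2.65 to 3.29 per degree of freedom. Symbols came from GENCODE for 47224 identifiers, and sequences from RefSeq and GENCODE.

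The members and lists were chosen with earlier results of these data known. All 9 members were named, as were listed genes that passed a test, neighbouring genes, the 3 nearest profiles of each member called, and a few listed genes as examples, chosen after their values were seen (*Rc3h2*, *Zfp36*, *Adam17*, marker and receptor genes). Alternatives were DESeq2 1.42.0, limma-voom (limma 3.58.1), other scaling and filters, each sample left out, the samples of a comparison alone, a replicate block, and other prior counts.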

Additional observations from a re-analysis of the deposited data

Results flagged for a closer look

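The log2 fold change of *Lta* between anti-PD1 and anti-Lag3, tested directly, was -1.40 (SE 0.33, adjusted p = 0.0420, edgeR). Both anti-PD1 samples (8.15 and 18.4 CPM) lay under both anti-Lag3 samples (36.7 and 34.9 CPM). No other ligand passed this direct test, and *Lta* itself did not pass with limma-voom or with filterByExpr. The call was lost when any of these 4 samples was left out (log2 fold changes -2.13 to -0.96).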

How the results depend on the processing

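Over the 27 log2 fold changes of the 9 ligands, 344 of 374 values under alternatives kept their direction and their side of the threshold, 9 kept the direction but lost the call, and 21 changed sign. Most of the 27 were not called in the main fit and had no call to lose, so the 344 say little about how steady the calls are. The losses of calls were in *Lta* and *Ltb*. Between the antibodies, the call of *Lta* was lost under 6 alternatives and kept under 7. Between anti-PD1 and isotype, that of *Lta* was lost under 2 and kept under 12, and that of *Ltb* lost under 1 and kept under 13. The ligands called between anti-PD1 and isotype stayed 2 under DESeq2, limma-voom, both filters, DESeq2 size factors, the samples of the comparison alone, and without *Gm42418* and mitochondrial rRNA, and ran from 0 to 2 with a sample left out. Between anti-PD1 and anti-Lag3, the count of ligands called was 0 with limma-voom or filterByExpr and 0 to 1 with a sample left out. DESeq2 gave *Lta* a log2 fold change of -1.42 there and no adjusted p, so no call could be counted. It also gave no adjusted p there for *Tnf*, *Tnfsf11*, *Tnfsf14*, *Tnfsf10*, and *Fasl*. These were counted as not called, as in the main fit, and so as keeping their side of the threshold.

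Over all genes, calls between anti-PD1 and isotype rose to 175 with the samples of the comparison alone and ran from 46 to 161 with a sample left out. Between anti-Lag3 and isotype (5 calls) they were 1 with DESeq2, 0 with filterByExpr or with the samples of the comparison alone, 20 without a filter, 3 without *Gm42418* and mitochondrial rRNA, and 0 to 16 with a sample left out. Between anti-PD1 and anti-Lag3 (36 calls) they were 16 with DESeq2, 58 without a filter, and 3 to 49 with a sample left out. The causes were not tested.

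With limma-voom, *Tnfsf14* was 0.030 between anti-PD1 and isotype, and *Tnfsf11* was 0.0059 between anti-Lag3 and isotype. With a sample left out, the log2 fold changes between anti-PD1 and isotype ran from -0.017 to 0.43 for *Tnfsf8*, -0.50 to 0.53 for *Tnfsf14*, and -0.32 to 0.36 for *Cd40lg*. Those between anti-Lag3 and isotype ran from -0.80 to 0.34 for *Lta*, -0.19 to 0.70 for *Tnf*, -0.26 to 0.25 for *Tnfsf11*, -0.19 to 0.90 for *Tnfsf14*, -0.21 to 0.75 for *Tnfsf10*, -0.079 to 0.12 for *Cd40lg*, and -0.88 to 0.077 for *Fasl*. Those between anti-PD1 and anti-Lag3 ran from -0.76 to 0.13 for *Tnfsf14*, -0.33 to 0.35 for *Cd40lg*, and -5.27 to 0.29 for *Fasl*. For the log2 ratios of neighbouring messages, the difference in *Lta* to *Tnf* between the antibodies and that in *Lta* to *Ltb* between anti-PD1 and isotype changed sign with a sample left out, reaching 0.22 and 0.13. Where a left-out sample left a group with 1 sample, edgeR's pooled spread was used and that sample was assumed to vary like the other groups.

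Over 7138 genes, same-numbered samples did not deviate together (correlations of deviations 0.04, 0.03, and -0.06), and the main fit did not take the numbers as pairs. Such correlations cannot exclude that same-numbered samples were sorted or processed together, which the sources do not state for these 6 samples. With the replicate block, 2, 0, and 1 ligands were called in the 3 comparisons, as without it, and 144, 6, and 46 genes in all.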

Other observations

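Among the 9 ligands themselves, the profiles over the 6 samples closest to each other were those of *Tnf* and *Tnfsf10* (Euclidean distance 0.56 on centred log2 CPM) and of *Tnfsf8* and *Cd40lg* (0.69), which lie on different chromosomes. *Tnf* was 1.55 from *Lta* and 1.27 from *Ltb*, its neighbours in the genome. *Tnfsf10* had between 4 and 20 reads per sample, and these distances carry no test. Distances are also small between profiles that vary little. Around its mean, *Cd40lg* ran only from -0.32 to 0.35 in log2 CPM, and *Tnfsf8* from -0.38 to 0.47.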
